A study of Mus musculus with 12 samples.

Results

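Fibroblast growth factor (FGF) signalling was examined in C3H10T1/2 cells, a mouse mesenchymal progenitor line, as 9 genes chosen by name: the ligands Fgf2, Fgf7, Fgf10, Fgf18 and Fgf21 and the receptors Fgfr1, Fgfr2, Fgfr3 and Fgfrl1. They were 9 of the 56748 genes in the count table. The cells, labelled wild type, were starved in 0.5% serum, held in suspension for 1 h, and cultured for 18 h on 12 kPa hydrogels carrying a layer of type I collagen cast at 0.05 mg/mL. In the col1 group the collagen was polymerized alone. In the col1-ACLP group it was polymerized with 30 nM recombinant aortic carboxypeptidase-like protein (ACLP), a collagen-binding matrix protein. In the col1-ACLP+SB group cells on the same ACLP-containing matrix also received SB431542, an inhibitor of the TGFβ type I receptor ALK5, which the study's methods give as 5 μM added at seeding. PolyA-enriched RNA was sequenced in 4 libraries per group, which the study describes as biological replicates, while the sample labels give a number only, so the p-values measure the spread between these libraries. All libraries came from 1 cell line, and no inhibitor-treated cells on collagen without ACLP were analysed here, so an action of the inhibitor that does not depend on ACLP cannot be told apart from one that does.

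FGFs are secreted proteins that bind receptor tyrosine kinases together with heparan sulfate, and receptor activation runs through adaptor proteins to the MAP kinase cascade and to transcription factors of the ETS family. The same pathway switches on its own inhibitors, among them the Sprouty proteins and dual-specificity phosphatases. In many organs, mesenchymal cells make Fgf7 and Fgf10, which act on a splice form of Fgfr2 found mainly in epithelium, while the mesenchymal cells themselves respond through other receptor forms. Gene-level counts do not separate these splice forms.

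Total counts ranged from 29246154 to 52201922 per library, with group medians of 37399612 (col1), 31875043.5 (col1-ACLP) and 32452591.5 (with the inhibitor). Of 12 mesenchymal marker genes, 11 exceeded 10 CPM (counts per 1000000 counts of a library, scaled by the TMM method), and their summed level was 25742 to 26674 CPM in col1, 35528 to 43759 CPM in col1-ACLP, and with the inhibitor 32441 to 37914 CPM. The higher sums lay in the collagen genes Col1a1 (means of 11900, 20960 and 18380 CPM in the 3 groups) and Col1a2, while the means of Pdgfra (419.7, 248.4 and 277.8 CPM), Pdgfrb, Vim, Prrx1, Twist1 and Cd44 were lower in both ACLP groups than in col1. Summed markers of other cell types stayed between 2.68 and 5.04 CPM for epithelial genes (Epcam at 0), 4.50 and 9.85 CPM for endothelial genes, 5.46 and 10.0 CPM for haematopoietic genes (Adgre1 and Cd3e at 0) and 0.342 and 2.28 CPM for adipocyte genes. One library stood apart: col1 replicate 2 lay at -86.7 on the first principal component of all tested genes, against -11.1 to -8.97 in the other col1 libraries and 10.0 to 20.6 in the 8 ACLP libraries. Members' calls that change when it is left out are given both ways.

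To ask which ligands and receptors these cells transcribed, levels were compared per length, as CPM per kilobase of the gene length listed in the table. Averaged over the 12 libraries, Fgf7 was the highest at 76.3 CPM per kb, followed by Fgfrl1 at 69.6 and Fgfr1 at 61.5. Fgf18 followed at 9.37 CPM per kb, then Fgf2 at 2.30, Fgfr3 at 2.06, Fgfr2 at 1.06 and Fgf10 at 0.260, with Fgf21 last at 0.0247. The cells thus held 1 abundant ligand transcript and 2 abundant receptor transcripts, of which Fgfrl1 encodes a receptor without the intracellular kinase domain.

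With these lengths the order at the top differed between the groups. In col1, the ranges over the 4 libraries were 80.4 to 88.0 CPM per kb for Fgf7, 63.3 to 68.2 for Fgfr1 and 55.3 to 60.5 for Fgfrl1, so the levels of the 3 genes did not overlap. In col1-ACLP, Fgfrl1 at 73.4 to 82.1 CPM per kb overlapped Fgf7 at 65.8 to 76.6, and both lay above Fgfr1 at 58.3 to 60.6. In col1-ACLP+SB the same neighbours overlapped, Fgfrl1 at 70.4 to 78.3 and Fgf7 at 63.3 to 74.6 CPM per kb, above Fgfr1 at 58.0 to 61.3. Lower in the order, Fgf2 and Fgfr3 overlapped in every group, Fgfr2 overlapped Fgf10 in col1, and Fgf10 overlapped Fgf21 in both ACLP groups. This order depends on the lengths: Fgfrl1 is listed with 2782 bases in the table and has 7082 bases of exon in GENCODE M39. With GENCODE lengths the order of the group means was Fgf7, Fgfr1 and Fgfrl1 in every group, at 62.6, 50.4 and 22.8 CPM per kb in col1 and 54.0, 45.7 and 30.6 in col1-ACLP, and by CPM without length it was Fgfr1, Fgf7 and Fgfrl1 in every group. Fgf18, with 1187 bases in the table and 2209 in GENCODE, was at 5.03 CPM per kb with the latter and kept its place after these 3 genes.

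**Figure D1:**
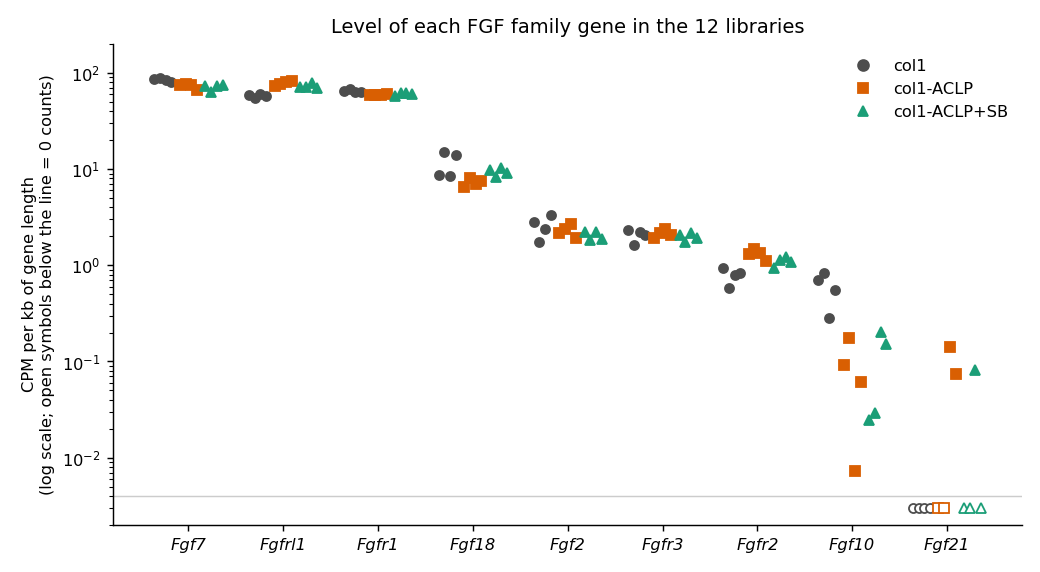
Level of each gene in each of the 12 libraries, in CPM per kb of gene length on a log axis; circles are col1, squares col1-ACLP and triangles col1-ACLP+SB, and open symbols below the line mark libraries with 0 counts. Fgf7, Fgfrl1 and Fgfr1 lie together above the other genes, Fgf10 is lower in the 8 ACLP libraries than in col1, and Fgf21 is at 0 in 9 libraries.

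Expressed as shares of the summed CPM per kb of the 3 kinase receptors, Fgfr1 made up 95.8% ± 0.719 (SD, n = 4) in col1, 94.5% ± 0.459 in col1-ACLP, and 95.2% ± 0.324 with the inhibitor. Fgfr2, the smallest share, went from 1.15% ± 0.223 in col1 to 2.09% ± 0.250 in col1-ACLP, and was 1.73% ± 0.159 with the inhibitor. Among the ligands, Fgf7 made up 85.3% ± 3.18, 88.3% ± 0.980 and 86.1% ± 0.783 in the same order of groups. These shares are descriptions and carry no test.

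Cells on col1-ACLP were next compared with cells on col1, which addresses the effect of ACLP in the collagen matrix. A gene was called when edgeR's quasi-likelihood test gave a Benjamini-Hochberg adjusted p under 0.05 over the 16465 tested genes and the log2 fold change exceeded 0.58 in size, the threshold of the study. Of the 8 members that passed the filter on low counts, Fgfr2 rose, and Fgf10 and Fgf18 fell. Over all tested genes, 2.61% were called higher and 2.36% lower. Fgfrl1 was higher, and Fgf7 and Fgfr1 lower, with an adjusted p under 0.05 but a smaller fold. That made 2 members higher and 4 lower by adjusted p alone, against 9.52% and 8.41% of all tested genes. The median log2 fold change was -0.16 over the 8 members and -0.01 over all tested genes.

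Fgf10, a ligand made by limb, lung and adipose mesenchyme (ENSMUSG00000021732, GRCm39 chromosome 13, 118806327 to 118928651, plus strand), had the largest fitted change of the 8 tested members. Its levels in replicates 1 to 4 were 3.24, 3.84, 1.31 and 2.53 CPM on col1, from 124, 145, 43 and 109 counts. On col1-ACLP they were 0.428, 0.802, 0.0334 and 0.283 CPM, from 14, 29, 1 and 8 counts. On col1-ACLP+SB they were 0.114, 0.134, 0.926 and 0.695 CPM, from 4, 4, 48 and 21 counts. Every ACLP library lay below every col1 library, with the closest pair being col1 replicate 3 and col1-ACLP+SB replicate 3. The counting error alone is wide at this depth: the exact Poisson 95% interval for the single count is 0.0253 to 5.57, and for 48 counts it is 35.4 to 63.6. The fitted log2 fold change of col1-ACLP against col1 was -2.78 ± 0.633 (SE; 95% interval -4.09 to -1.48; adjusted p = 0.0022), a 6.89-fold lower level. It stood at -2.58 without col1 replicate 2 (adjusted p = 0.00837) and at -3.43 without col1-ACLP replicate 2, the highest of its group (adjusted p = 0.00113).

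Fgf18, a ligand best known from skeletal growth (ENSMUSG00000057967, chromosome 11, 33067430 to 33097400, minus strand), was measured at 10.4, 17.7, 10.0 and 16.6 CPM in the col1 libraries. On col1-ACLP it was at 7.67, 9.56, 8.25 and 8.89 CPM, below all 4 col1 libraries. The col1 libraries themselves split into a lower and a higher pair, and their SD of 4.04 CPM compares with 0.818 CPM in col1-ACLP. The fitted log2 fold change was -0.67 ± 0.161 (SE; adjusted p = 0.00364), or 1.59-fold lower. It did not pass the fold threshold when either of the 2 highest col1 libraries was left out, at -0.52 without replicate 2 (adjusted p = 0.0232) and -0.56 without replicate 4 (adjusted p = 0.0239).

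Fgfr2, the receptor for Fgf7 and Fgf10 in epithelium (ENSMUSG00000030849, chromosome 7, 129764181 to 132725079, minus strand), was measured at 9.58, 6.06, 8.16 and 8.53 CPM on col1 and at 13.7, 15.2, 13.8 and 11.5 CPM on col1-ACLP. The lowest of the 12 libraries was col1 replicate 2, and the groups did not overlap. The fitted log2 fold change was 0.74 ± 0.142 (SE; adjusted p = 0.000372), or 1.67-fold higher, and 0.63 without col1 replicate 2 (adjusted p = 0.00146). Of its GENCODE M39 exon bases, 2.77% are shared with Ctbp2 on the same strand, a gene with 17556 counts over the 12 libraries against 4645 for Fgfr2. How reads in the shared bases were assigned is not given in the sources used here.

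**Figure D2:**
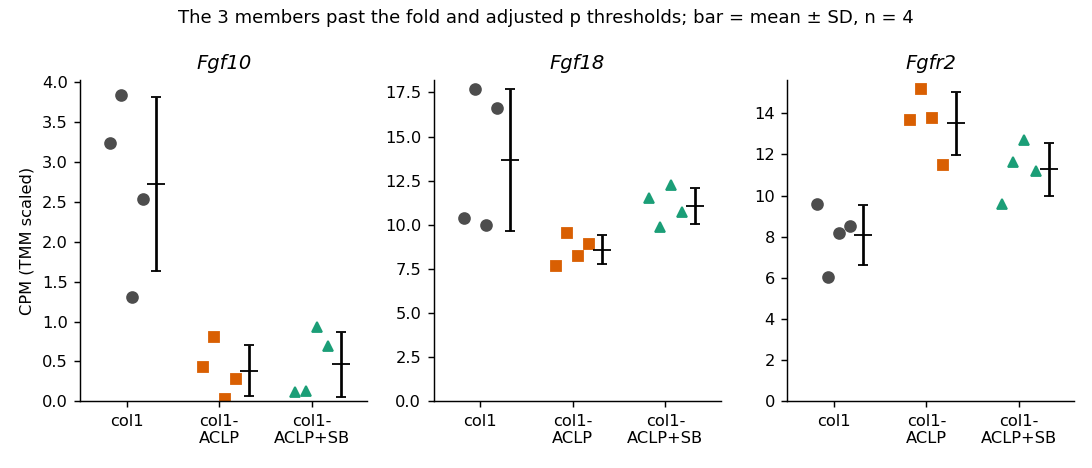
TMM-scaled CPM of Fgf10, Fgf18 and Fgfr2 in each library by group, with the mean ± SD of the 4 libraries as a bar beside the points and each axis starting at 0. Fgf10 averages 2.73, 0.387 and 0.467 CPM, Fgf18 averages 13.7, 8.59 and 11.1 CPM, and Fgfr2 averages 8.08, 13.5 and 11.3 CPM, from the left group to the right one.

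The 250 bases before the RefSeq start site of these 3 genes are shown because they are the members called between the matrices. They were taken from RefSeq on GRCm38.p6, where they lie at chr13:118714449-118714698 (plus strand), chr11:33147401-33147650 (minus strand) and chr7:130266809-130267058 (minus strand). RefSeq gives Fgfr2 a span of 104358 bases, while the count table gives 2960899 bases and a start far upstream, so the Fgfr2 window lies inside the gene as counted. The spans also differ for Fgf10, at 77875 bases in RefSeq and 122325 in the table. Whether the Fgf10 window also lies inside the gene as counted was not checked, because the coordinates are on different builds. Each is written 5′ to 3′ in the direction of transcription, and capitals mark matches on either strand to 3 core promoter elements (the GC box GGGCGG, the CCAAT box and the TATA box element TATAAA) or to binding motifs of AP-1 (TGANTCA), TEAD (GGAATG), ETS (CCGGAAG), SMAD (GTCTAGAC) and serum response factor (the CArG box).
Fgf10: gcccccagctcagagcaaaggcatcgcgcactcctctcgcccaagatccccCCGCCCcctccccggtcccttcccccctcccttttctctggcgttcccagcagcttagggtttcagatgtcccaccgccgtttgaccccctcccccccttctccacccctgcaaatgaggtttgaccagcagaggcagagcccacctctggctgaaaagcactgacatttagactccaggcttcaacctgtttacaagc
Fgf18: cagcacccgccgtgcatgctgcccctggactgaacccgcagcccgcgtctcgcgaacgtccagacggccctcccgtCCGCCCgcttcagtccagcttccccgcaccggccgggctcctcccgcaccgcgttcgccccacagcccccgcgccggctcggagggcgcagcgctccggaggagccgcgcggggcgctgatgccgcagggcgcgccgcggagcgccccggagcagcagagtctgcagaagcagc
Fgfr2: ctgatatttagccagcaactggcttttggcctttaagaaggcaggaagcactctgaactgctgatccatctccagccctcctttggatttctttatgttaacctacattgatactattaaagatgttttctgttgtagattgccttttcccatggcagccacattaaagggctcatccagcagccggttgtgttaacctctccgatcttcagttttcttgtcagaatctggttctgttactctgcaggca
The 3 windows differed in base composition, with 61.2% G and C in Fgf10, 77.2% in Fgf18 and 44.0% in Fgfr2, against a median of 52.4% over 32851 promoters of the same length. Fgf10 and Fgf18 each held 1 match, a GC box on the opposite strand that began 199 and 174 bases before the start site, an element found in 32.7% of all promoters. The Fgfr2 window held no match. The other elements occurred in 33.8% (CCAAT box), 12.4% (TATA box), 6.75% (AP-1), 12.6% (TEAD), 6.91% (ETS), 0.167% (SMAD) and 1.47% (CArG box) of promoters. Among the 8 members with a RefSeq promoter, the ETS motif was found in Fgfrl1 alone, 48 bases before its start. Besides Fgf10 and Fgf18, GC boxes lay in Fgf2, Fgf21, Fgfr3 and Fgfrl1. CCAAT boxes lay in Fgf7, Fgfr3 and Fgfrl1, and a TATA box element in Fgf21. A match is a stretch of letters and does not show a binding site.

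The remaining members moved less. Fgfrl1, the receptor without a kinase domain (ENSMUSG00000008090, chromosome 5, 108840248 to 108854790, plus strand), was at 165, 154, 168 and 159 CPM on col1 and 204, 212.5, 222 and 228 CPM on col1-ACLP. Its groups did not overlap, and its log2 fold change of 0.42 ± 0.0513 (SE; adjusted p = 7.19e-07) had the smallest adjusted p of the members. Fgfr1, the main kinase receptor here (ENSMUSG00000031565, chromosome 8, 26003670 to 26065734, plus strand), was at 647, 674, 625 and 631 CPM on col1 and 576, 585.5, 576 and 598 CPM on col1-ACLP. The difference of -0.14 ± 0.0399 on the log2 scale (adjusted p = 0.0129) was small, and it did not pass without col1 replicate 2, at -0.12 (adjusted p = 0.0575), or with no filter on low counts (adjusted p = 0.0592).

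Fgf7, the abundant ligand (ENSMUSG00000027208, chromosome 2, 125876578 to 125933105, plus strand), was at 280.2, 286, 274 and 261 CPM on col1 and 243, 249, 243 and 214 CPM on col1-ACLP. Its log2 fold change was -0.21 ± 0.0564 (SE; adjusted p = 0.00766), with no overlap between the groups. Fgf2, a ligand secreted without a signal peptide (ENSMUSG00000037225, chromosome 3, 37402495 to 37464257, plus strand), ranged from 11.9 to 22.6 CPM on col1 and from 13.0 to 18.1 CPM on col1-ACLP. Its groups overlapped and its difference of -0.17 (95% interval -0.48 to 0.13; adjusted p = 0.507) did not pass, nor did that of -0.32 without col1 replicate 2 (adjusted p = 0.107). Nudt6 lies on the opposite strand over 44.95% of the Fgf2 exon bases, with 661 counts against 6741, and reads there cannot be told apart without strand. Fgfr3, a receptor best known as a brake on bone growth (ENSMUSG00000054252, chromosome 5, 33879018 to 33894412, plus strand), ranged from 11.7 to 16.7 CPM on col1 and from 13.8 to 17.2 CPM on col1-ACLP, a difference of 0.06 (95% interval -0.19 to 0.31; adjusted p = 0.815). Fgf21, an endocrine FGF that needs β-Klotho (ENSMUSG00000030827, chromosome 7, 45263310 to 45264914, minus strand), was not tested. It had 0 counts in all col1 libraries, which allows up to 0.0697 to 0.0911 CPM at 3 counts per library. There were 4 and 2 counts in col1-ACLP replicates 3 and 4, and 4 counts in col1-ACLP+SB replicate 3. Fut1 lies on the opposite strand over 17.99% of the Fgf21 exon bases, with 39 counts against 10. Reads there cannot be told apart without strand either.

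Cells on col1-ACLP+SB were compared with both other groups to ask whether the ACLP difference was present under ALK5 inhibition. Against col1, Fgf10 was called lower and no member was called higher, beside 1.01% and 1.27% of all tested genes. By adjusted p alone, Fgfr2 and Fgfrl1 were higher and Fgf7 and Fgf10 lower, beside 4.6% of all tested genes higher and 4.54% lower. This comparison uses the same col1 libraries as the previous one, so the pair are not independent. The median log2 fold change was -0.18 over the 8 members and 0.005 over all tested genes.

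Fgf10 stood at a log2 fold change of -2.50 ± 0.617 (SE; adjusted p = 0.00829), or 5.67-fold lower than col1, and at -2.29 without col1 replicate 2 (adjusted p = 0.0285). Without col1-ACLP+SB replicate 3, the highest of its group, it was -3.12 (adjusted p = 0.00425). Fgfr2 was at 9.60, 11.6, 12.7 and 11.2 CPM with the inhibitor, just above the highest col1 library in its replicate 1. Its log2 fold change was 0.48 ± 0.142 (adjusted p = 0.0302), and its adjusted p was under 0.05 in 14 of 21 alternatives. It did not pass without col1 replicate 2 (0.37, adjusted p = 0.102) or 3 (adjusted p = 0.0597), nor without col1-ACLP+SB replicate 2 (adjusted p = 0.0601), 3 (0.42, adjusted p = 0.109) or 4 (adjusted p = 0.0546). Fgfrl1, at 196, 199, 218 and 196 CPM, was 0.33 ± 0.0513 higher (adjusted p = 6.26e-05), and Fgf7, at 237, 205, 239 and 242 CPM, was -0.25 ± 0.0564 from col1 (adjusted p = 0.00334). Fgf18, at 11.5, 9.87, 12.25 and 10.75 CPM, overlapped the col1 libraries and gave -0.30 ± 0.159 (adjusted p = 0.304), and -0.15 without col1 replicate 2 (adjusted p = 0.69). Fgf2 at -0.33 ± 0.148 (adjusted p = 0.203) did not pass, and its adjusted p was under 0.05 in 1 of 21 alternatives, at -0.47 without col1 replicate 2 (adjusted p = 0.0208). Fgfr1, at 573 to 605 CPM, gave -0.12 (95% interval -0.20 to -0.03; adjusted p = 0.0708), which passed with library size alone (adjusted p = 0.0172), DESeq2 (adjusted p = 0.0173) and limma-voom (adjusted p = 0.0308), 3 of the 21 alternatives. Fgfr3 gave -0.06 (95% interval -0.31 to 0.18; adjusted p = 0.856).

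Between col1-ACLP+SB and col1-ACLP, the direct test of the inhibitor on the ACLP matrix, no member was called in either direction by edgeR, DESeq2 (which gave Fgf10 no adjusted p) or limma-voom, and 1 member, Fgf18, had an unadjusted p under 0.05. The background was low, at 0.085% of all tested genes higher and 0.0425% lower, or 0.571% and 0.905% by adjusted p alone. Fgf18 was higher by 0.37 ± 0.162 on the log2 scale, with every inhibitor library above every col1-ACLP library, but its adjusted p was 0.321. Fgfr2 differed by -0.26 (95% interval -0.55 to 0.03; adjusted p = 0.462) and Fgfrl1 by -0.10 (95% interval -0.20 to 0.01; adjusted p = 0.445). For Fgf10 the interval of -1.04 to 1.61 on the log2 scale around 0.28 leaves room for a change of over 1 log2 unit in either direction. The intervals for Fgf7, -0.15 to 0.08, and Fgfr1, -0.06 to 0.11, are narrower.

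**Figure D3:**
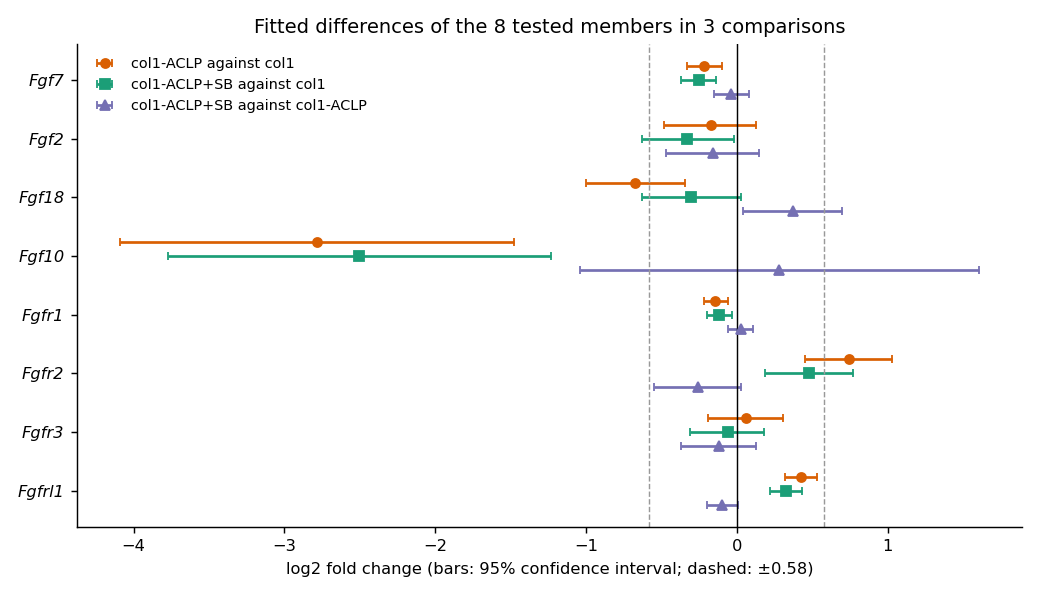
Fitted log2 fold change of the 8 tested members in the 3 comparisons; points are edgeR estimates, bars are 95% confidence intervals and dashed lines mark a log2 fold change of 0.58 in either direction. Fgf10 sits at -2.78 and -2.50 against col1, Fgfr2 at 0.74 and 0.48, and each interval for col1-ACLP+SB against col1-ACLP includes 0 except that of Fgf18, at 0.04 to 0.70.

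The wider pathway was read from 87 further genes, of which 86 were in the table under that name and 66 passed the filter. Against col1, 5 of the 66 were called higher on col1-ACLP and 5 lower, beside 2.61% and 2.36% of all tested genes, and the median was -0.03. The 5 lower genes all belonged to the feedback inhibitors and transcriptional targets of the pathway, of which 19 were tested with a median of -0.52 and none called higher, beside 2.36% of all tested genes lower. With the inhibitor, 3 of these 19 were called lower against col1, beside 1.01% of all tested genes, and none higher, with a median of -0.39. The lists were chosen with earlier results of these data known, so these counts are not independent support for a change in the pathway. Whether the differences came through FGF receptors was not tested. In bulk RNA, fewer cells making a transcript and less of it per cell cannot be told apart.

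Etv5, an ETS transcription factor induced by FGF receptors, fell from 56.2 ± 5.64 CPM (SD, n = 4) on col1 to 21.3 ± 2.03 on col1-ACLP (log2 fold change -1.40, adjusted p = 2.66e-11), and was at 27.7 ± 3.27 CPM with the inhibitor. The difference of the inhibitor from col1-ACLP, 0.38 on the log2 scale, was below the fold threshold, and its adjusted p of 0.0425 was under 0.05 in 10 of 21 alternatives (0.00211 to 0.157). Its relative Etv1 fell by 1.52 on the log2 scale on col1-ACLP (adjusted p = 0.000141). Spry2, a Sprouty inhibitor of receptor signalling, went from 61.6 ± 4.85 CPM to 35.7 ± 5.36 on col1-ACLP and 40.2 ± 6.82 with the inhibitor, at -0.79 (adjusted p = 3.34e-06) and -0.61 (adjusted p = 0.00018) against col1. The latter fell under the fold threshold without col1 replicate 2 (-0.577, adjusted p = 0.00101) or col1-ACLP+SB replicate 1 (-0.52, adjusted p = 0.00136). Phlda1 at -0.70 (adjusted p = 5.01e-06) and Fosl1, an AP-1 subunit, at -1.28 (adjusted p = 0.0136, or 0.0535 without col1-ACLP replicate 1) completed the called genes on col1-ACLP.

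Not all members of that list moved the same way. Dusp5 (-0.52), Dusp6 (-0.45), Il17rd (-0.55) and Egr1 (-0.47) were lower by adjusted p with folds under the threshold. Ccnd1 (0.22) and Lgals3 (0.41) were higher in the same way. These 6 were named after their values were seen. By adjusted p alone, 9 of the 19 were lower and 2 higher, beside 8.41% and 9.52% of all tested genes. The remaining 8 of the 19, Spry1, Spry4, Spred1, Spred2, Spred3, Dusp4, Etv4 and Tbx3, did not pass.

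**Figure D4:**
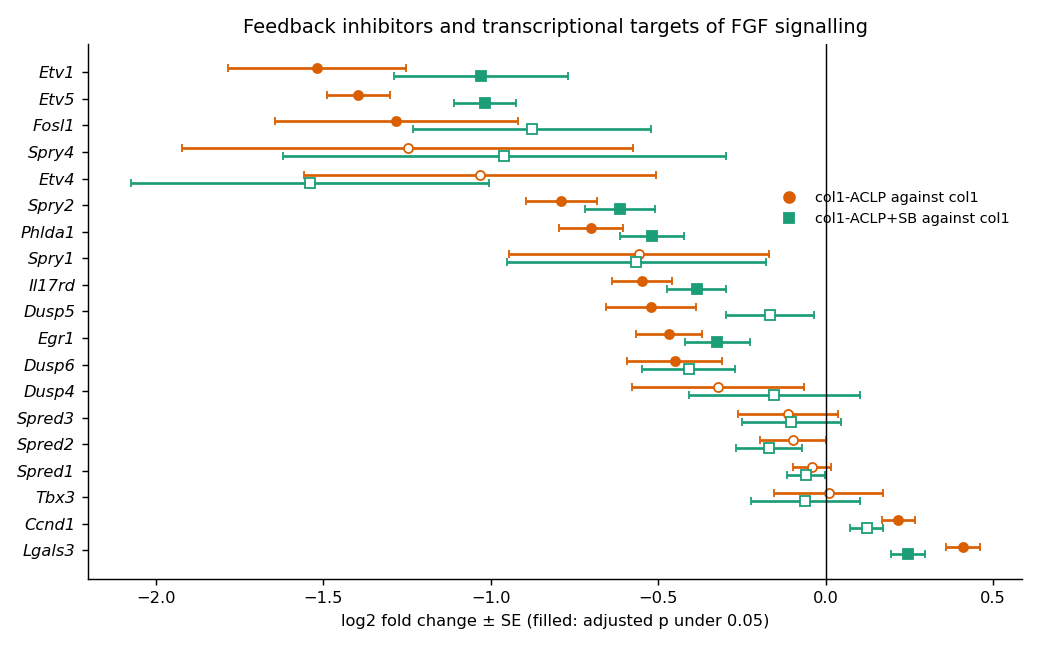
Log2 fold change ± SE of the 19 tested feedback inhibitors and transcriptional targets against col1, for col1-ACLP (circles) and col1-ACLP+SB (squares); filled symbols have an adjusted p under 0.05. Etv5 at -1.40 and Etv1 at -1.52 on col1-ACLP are far to the left, and Ccnd1 and Lgals3 lie to the right of 0.

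The 5 genes called higher on col1-ACLP were spread over other lists. Among 15 heparan sulfate genes, 3 were called, all higher, beside 2.61% of all tested genes, with a median of 0.04 over the list: Sulf1, an extracellular sulfatase that trims heparan sulfate, at 0.76 (adjusted p = 5.37e-05), Glce, an epimerase of its synthesis, at 0.62 (adjusted p = 1.11e-07; 0.57 and under the fold threshold with library size alone), and Extl1 at 1.04 (adjusted p = 0.00104). With the inhibitor none of the 15 passed both thresholds against col1, with Glce at 0.52 (adjusted p = 3.27e-06), Extl1 at 0.51 (adjusted p = 0.175, or 0.73 and called at 0.00853 without col1-ACLP+SB replicate 2) and Sulf1 at 0.29 (adjusted p = 0.187). The direct difference of Glce between the inhibitor and col1-ACLP was -0.10 (adjusted p = 0.623). Sulf1 was the 1 gene of this list with an adjusted p under 0.05 between the inhibitor and col1-ACLP, at -0.48 (adjusted p = 0.0491), and passed in 9 of 21 alternatives (0.0019 to 0.164). Fgf14, an intracellular FGF homologous factor that binds sodium channels and no FGF receptor, went from 2.78 ± 0.549 CPM to 5.72 ± 1.38, at 1.04 (adjusted p = 0.00106), and stood at 0.73 with the inhibitor (adjusted p = 0.0347). The call with the inhibitor was lost without col1 replicate 2 (adjusted p = 0.0928), 3 (adjusted p = 0.0912) or 4 (adjusted p = 0.056) and without col1-ACLP+SB replicate 1 (adjusted p = 0.155) or 4 (adjusted p = 0.0613). Fgfbp1, a carrier that releases FGFs from the matrix, was called in both comparisons with col1 at levels under 1 CPM, 0.0768 CPM on col1, 0.645 on col1-ACLP and 0.583 with the inhibitor. Its call with the inhibitor was lost without col1 replicate 4 (adjusted p = 0.0504) or col1-ACLP+SB replicate 1 (adjusted p = 0.0777).

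None of the 24 signal transducers was called in any comparison. Over all tested genes, 2.61% were called higher and 2.36% lower on col1-ACLP against col1. The shares were 1.27% and 1.01% for col1-ACLP+SB against col1, and 0.085% and 0.0425% for col1-ACLP+SB against col1-ACLP. At such shares, no call among 24 genes does not set the list apart. By adjusted p alone, 7 were higher and 4 lower on col1-ACLP, beside 9.52% and 8.41% of all tested genes. Of 13 other ligands, 1 passed the filter, Fgf17, at 1.54, 0.720 and 1.28 CPM in the 3 groups, and its difference between col1-ACLP and col1 did not pass (adjusted p = 0.157), but was called lower without col1 replicate 2. Fgfr4 and the co-receptor Klb had 18 and 38 counts summed over all 12 libraries, and Kl had none.

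The genes whose log2 CPM most resembled each called member over the 12 libraries were Srxn1 (Pearson's r = 0.927), Trib2 (0.917) and Mt1 (0.91) for Fgf10, Gm22571 (0.929), B4galt1 (0.911) and 1700096K18Rik (0.90) for Fgf18, and Pbk (0.956) and Elk3 (0.955) for Fgfr2. These 12 points share the 3 groups and the libraries, so the values describe likeness of pattern only.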

How the data were processed

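RNA-seq was performed on 12 libraries of C3H10T1/2 cells, 4 per group. The authors deposited raw counts per gene with gene lengths and coordinates. Their methods name HISAT2 with GRCm39, while the submitters' processing notes list HISAT2 with mm10; 46.5% of 21778 protein-coding gene starts in the table equalled those of GENCODE M39 (GRCm39), against 0.6% of 21195 for RefSeq on GRCm38.p6 (the build of mm10). The counting tool, its strand setting and the annotation version are not given in the sources used here.

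Counts were analysed with edgeR 4.0.16 in R 4.3.3: filterByExpr (16465 of 56748 genes kept), TMM scaling (factors 0.966 to 1.02), and quasi-likelihood tests on all 12 libraries with group as the only term. Log2 fold changes have SEs from the F statistic, and p-values were adjusted over all tested genes. Intervals of fold changes include the spread between libraries, while Poisson intervals and the floor of 3 counts cover counting error only. The 9 genes, the pathway lists and the tests were chosen with earlier results of these data known. All 9 genes were named, as were the genes called in any comparison, at most 5 per list in order of adjusted p, and, for members called on col1-ACLP, the 3 genes of highest correlation, of which 1 is not reported here. The core promoter elements were added to the motifs after the data had been seen.

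Same-numbered libraries did not deviate together (correlations -0.0372 to 0.036), so the main test had no replicate term. Alternatives were RLE size factors, library size alone, no filter, a mean of at least 10 counts, fits of 2 groups, a replicate block, DESeq2 1.42.0, limma-voom 3.58.1, the adjusted p alone, and leaving out each library. Levels were also ordered by CPM without length and, added after the data had been seen, by GENCODE exon length. The procedure was tested on simulated counts. The recovery bar first set there was missed and was then replaced by one on genes of at least 5 CPM, with the procedure unchanged, so changes in genes with few counts can be missed.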

Additional observations from a re-analysis of the deposited data

Results flagged for a closer look

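Of 26 sets of 4 libraries, 1 set per gene and group, 4 held a library that lay far from the other three by Dixon's test at its 95% critical value, which marks about 1 in 20 sets by chance. Fgf7 was at 213.71 CPM in col1-ACLP replicate 4, with the nearest library at 243.09 CPM. It was at 205.48 CPM in col1-ACLP+SB replicate 2, with the nearest at 237.12 CPM. Fgfrl1 was at 217.92 CPM in col1-ACLP+SB replicate 3, with the nearest at 199.47 CPM. In these 3 sets the library lay on the side away from the col1 libraries. Fgf21 was at 0.0772 CPM, or 4 counts, in col1-ACLP+SB replicate 3 and at 0 in the other libraries of its group.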

How the results depend on the processing

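Of 503 fold changes of the members under the alternatives, 490 kept their direction and side of the threshold, 6 passed it in addition, all with the adjusted p alone, 2 lost it (Fgf18, given with its result) and 5 changed sign. On col1-ACLP against col1, the calls of Fgf10 (-3.43 to -2.41) and Fgfr2 (0.63 to 0.84) held in all 21 alternatives, as did that of Fgf10 on col1-ACLP+SB against col1 (-3.12 to -2.18). Some alternatives were largely settled in advance. The adjusted p alone used the main fit and could not lose a call. Leaving out a library outside a comparison hardly moved its estimate: Fgf10 on col1-ACLP against col1 stayed at -2.78 whichever col1-ACLP+SB library was dropped. The same limit applies to each count of 21 alternatives given above.

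With the adjusted p alone, 6 of 8 tested members and 29 of 66 pathway genes passed for col1-ACLP against col1 (3 and 10 with the fold threshold). Of all tested genes, 9.52% passed higher and 8.41% lower. For col1-ACLP+SB against col1, 4 members and 15 pathway genes passed (1 and 5), beside 4.6% and 4.54%. For col1-ACLP+SB against col1-ACLP, 3 pathway genes passed (0 with the fold threshold), beside 0.571% and 0.905%. Of these, Etv5 and Sulf1 had an adjusted p under 0.05 in 10 and 9 of 21 alternatives. The remaining gene, Flrt2, named after its value was seen, was at -0.35 (adjusted p = 0.000152). Its means were 254, 348 and 273 CPM in col1, col1-ACLP and col1-ACLP+SB. Leaving out 1 library at a time gave 2 to 7 pathway genes for col1-ACLP+SB against col1, with 3 without col1 replicate 2 or 4 and 2 without col1-ACLP+SB replicate 1. The sign changes came from leaving out 1 library where no call was made. Fgfr3 ranged from -0.037 (without col1 replicate 2) to 0.13 on col1-ACLP against col1, and from -0.16 to 0.005 (without col1 replicate 1) on col1-ACLP+SB against col1. Between the inhibitor and col1-ACLP, Fgf7 ranged from -0.086 to 0.013 (without col1-ACLP+SB replicate 2), and Fgf10 from -0.34 (without col1-ACLP+SB replicate 3) to 0.93, with -0.09 without col1-ACLP replicate 3. There Fgfbp1 ranged from -0.532 to 0.094 (without col1-ACLP replicate 2) and Fosl1 from -0.011 (without col1-ACLP+SB replicate 2) to 0.646. The cause was not tested. The fit with a replicate block gave 3, 1 and 0 members and 10, 5 and 0 pathway genes in the 3 comparisons, the same counts as without it. Fgfr2 on col1-ACLP+SB against col1, below the fold threshold in either fit, had an adjusted p of 0.0535 with the replicate block and 0.059 in the fit of those 2 groups alone. Fgf14 in the same comparison was not called in that fit (adjusted p = 0.0661) or by limma-voom (adjusted p = 0.0564). By CPM without length the order was Fgfr1, Fgf7, Fgfrl1, Fgf2, Fgfr3, Fgf18, Fgfr2, Fgf10 and Fgf21. DESeq2 gave no adjusted p for Fgfbp1 with the inhibitor against col1. Depth limits Fgf10 in the ACLP groups and Fgf21 throughout.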
